A study of Mus musculus with 34 samples.

Results

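The comparison described here is the RNA of 3T3-L1 cells carrying the Kdm5 knockdown at day 2 of adipocyte differentiation against the same cells at day 0. Its members are the RefSeq transcripts with a log2 value of at least 1 in at least 2 of the RNA libraries, which were 13534 of the 17515 in the table. 3T3-L1 is an established mouse preadipocyte line that turns into fat cells in culture. The knockdown cells carried lentiviral shRNA against Kdm5a, Kdm5b and Kdm5c (shKdm5ABC), and the control cells carried shRNA against luciferase (shLuc). Both were transduced before they reached confluence, and no untransduced cells enter the RNA libraries. Day 0 is post-confluent and uninduced, and at day 2 the cells had been in dexamethasone, insulin, IBMX (a phosphodiesterase inhibitor that raises cAMP) and fetal bovine serum since day 0. Each group has 2 libraries of polyA RNA, numbered as experiments 1 and 2. Whether these were separate cultures is not stated, so each p-value measures only the spread between these libraries, which may be technical. The 4 compared libraries belong to 12 RNA libraries that were fitted together, out of 34 samples in the series.

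KDM5 proteins are histone demethylases that take methyl groups off lysine 4 of histone H3, a mark of active promoters. Confluent 3T3-L1 cells given the inducers re-enter the cell cycle for a few divisions, known as mitotic clonal expansion, and then switch on C/EBP and PPARγ transcription factors and the genes of fat storage. In the same days they lose the matrix and contractile genes of a fibroblast.

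Levels are given as deposited, on a log2 scale of normalized tags for each kb of transcript, and a change is day 2 minus day 0 on that scale. The transformation is not stated, and the lowest transcripts have nearly equal values in every library, so changes of weakly expressed genes may be understated. A gene was called when its limma p-value, adjusted over all 13534 transcripts, was under 0.05.

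The targeted genes check the labels. Kdm5a read 7.05 and 6.90 at day 0 and 6.97 and 6.77 at day 2 in the knockdown libraries, against 7.89 and 8.03 at day 0 and 7.73 and 7.82 at day 2 in shLuc. Kdm5c read 7.05 and 6.77 and then 7.17 and 6.91, against 8.21 and 8.40 and then 8.29 and 8.49 in shLuc. Kdm5b read 7.76 and 7.72 and then 6.97 and 6.89, against 8.44 and 8.47 and then 7.57 and 7.58 in shLuc. For each gene at each of these times both knockdown libraries lay below both shLuc libraries. Between day 0 and day 2 the knockdown level of Kdm5a (-0.11, SE 0.13, adjusted p 0.549) and Kdm5c (0.13, SE 0.18, adjusted p 0.599) did not pass the test, whereas Kdm5b fell by 0.81 (SE 0.10, adjusted p 1.47e-04). Kdm5b also fell in shLuc, by 0.88. Kdm5d was not tested.

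Between day 0 and day 2, 6114 transcripts changed in the knockdown cells, or 45.2% of those tested, of which 2983 rose (22.0%) and 3131 fell (23.1%). The median change over all tested transcripts was -0.004. Changes of at least 2-fold were called for 1224 transcripts that rose (9.04%) and 1712 that fell (12.6%), changes of at least 4-fold for 293 (2.16%) and 479 (3.54%), and changes of at least 16-fold for 32 (0.236%) and 20 (0.148%). The median SE of a change was 0.20. All called transcripts had day 2 libraries that did not overlap the day 0 libraries, as did 71.6% of all tested transcripts, so separation of 2 against 2 libraries carries little weight by itself. Calls depended on level: 27.8% of the 360 transcripts with a mean log2 level under 1 were called. The share was 56.1% for the 1268 between 9 and 11 and 48.2% for the 218 at 11 or above. In bulk RNA, fewer cells of a type and less RNA per cell cannot be told apart.

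**Figure D1:**
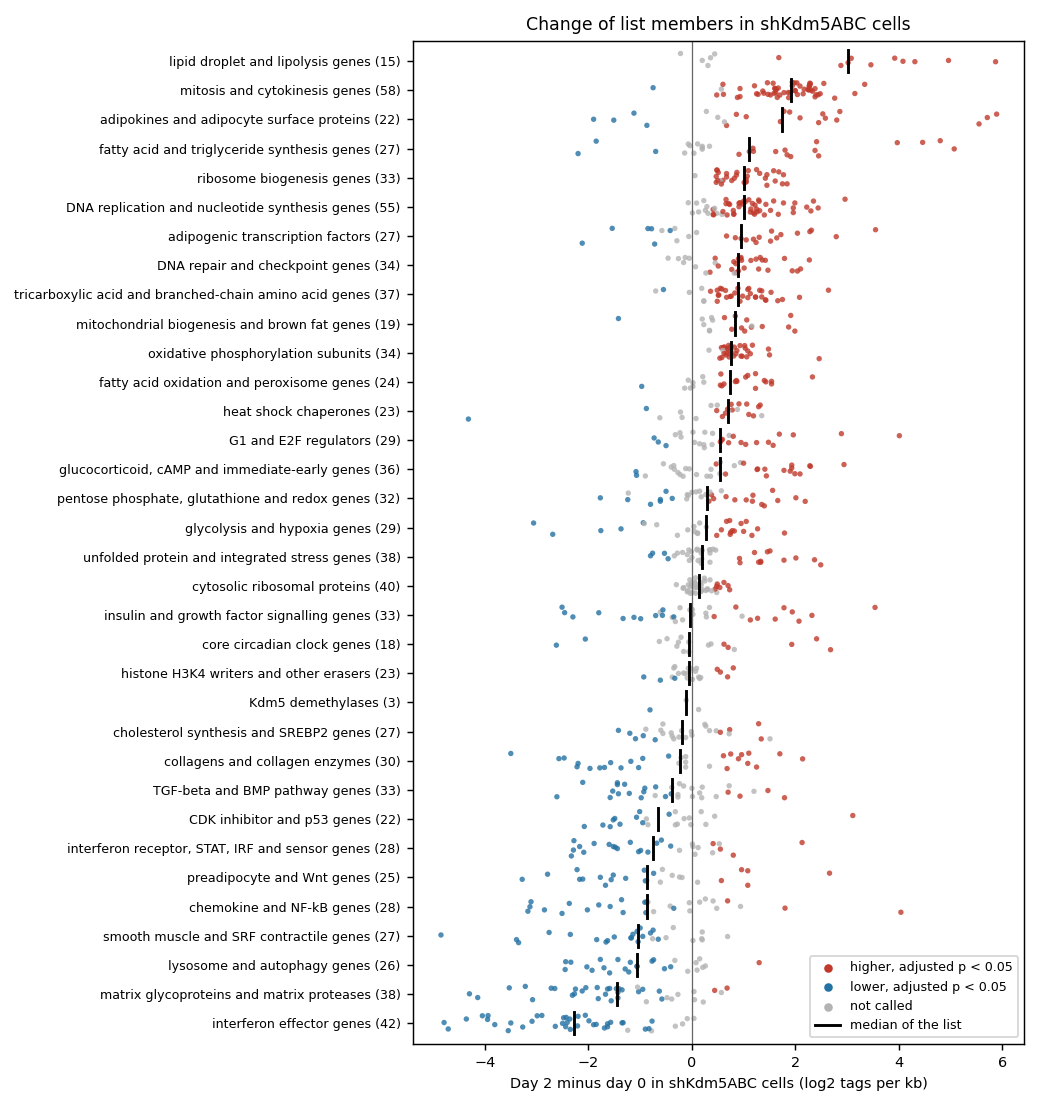
Day 2 minus day 0 change in shKdm5ABC cells (x axis, log2 tags per kb) of the tested members of each gene list (y axis, number of members in brackets). Each point is a gene, red where it rose, blue where it fell and grey where it was not called, and the black bar is the list's median, which runs from -2.28 for interferon effector genes to 3.02 for lipid droplet and lipolysis genes.

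The 2 knockdown libraries differed before induction. Replicate 2 at day 0 already had higher levels of genes of mature fat cells than replicate 1: 5 of 15 lipid droplet genes, 5 of 22 adipokine and surface genes and 3 of 27 lipid synthesis genes were higher by more than 1, and none of these lists had a gene lower by more than 1. Over all tested genes 124 were higher by more than 1 and 151 lower. For the named genes of these lists whose day 0 libraries differed by more than 1, the change is also given without day 0 replicate 2. At day 2 replicate 2 was again the higher, by a median of 0.57 for lipid droplet genes. Same-numbered replicates also deviated together between shLuc and knockdown at day 0 (r 0.657). Leaving out day 0 replicate 2 sets day 0 replicate 1 against both day 2 libraries. That raises these changes, and the larger value is not a corrected one. Leaving out day 0 replicate 1 lowers them instead. The list medians were then 2.71 for lipid droplet, 1.35 for adipokine and surface and 0.94 for lipid synthesis genes. With all libraries they were 3.02, 1.74 and 1.11.

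Of the 12 largest increases 6 were those of fat cell genes. Cidec, a lipid droplet protein that lets droplets grow, read 3.68 and 6.98 at day 0 and 10.59 and 11.81 at day 2. It rose by 5.87 (SE 0.83, adjusted p 2.94e-04), a 58.6-fold increase. The change was 7.53 without day 0 replicate 2 and 4.22 without day 0 replicate 1. Retn, which encodes the secreted protein resistin, read 2.59 and 4.69 at day 0 and 9.35 and 9.72 at day 2 (change 5.89, SE 0.53, and 6.94 without day 0 replicate 2). Day 2 was far above both day 0 libraries for these genes, even though the day 0 libraries differed from each other by 2 log2 units or more. Adipoq (adiponectin) rose by 5.55, Cfd (complement factor D, or adipsin) by 5.71, Plin1 (the coat protein perilipin 1) by 4.96 and Acsl1 (an acyl-CoA synthetase) by 5.07. Those changes were 6.92, 6.76, 6.24 and 6.49 without day 0 replicate 2. Without day 0 replicate 1 they were 4.18 for Adipoq, 4.66 for Cfd and 3.65 for Acsl1.

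The other 6 are not fat cell genes by name, and the largest increase of all was among them. Fam107a, an actin-associated protein, read 3.31 and 3.40 at day 0 and 9.24 and 9.45 at day 2, with a change of 5.99 (SE 0.18, adjusted p 9.62e-08). Its libraries were close within each time, and the 4 h libraries at 8.09 and 8.46 lay between. Krt13, a keratin of epithelia, read 3.72 and 3.71 at day 0 and 8.76 and 8.55 at day 2 (change 4.94), and Fam83a (5.30) and Trim29 (5.17) also rose. Ren1 and Ren2, near-identical renin genes whose reads cannot be told apart with certainty, were listed with changes of 5.87 each.

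The largest decreases mixed matrix, contractile and interferon genes. Mamdc2 read 8.76 and 9.11 at day 0 and 2.87 and 2.86 at day 2, which left 1.49% of the day 0 level (change -6.07, adjusted p 2.64e-07). Gpr176, an orphan receptor, read 5.33 and 5.87 and then 0.60 and 0.43, and Megf10, an engulfment receptor, 4.97 and 5.26 and then 0.21 and -0.05. Their day 2 levels were near the bottom of the scale, so 2.95% and 3.04% of the day 0 level are rough figures. Acta2, Thbs2, Mmp27, Lrrn4cl and Cryab, and the interferon genes Oasl2, Ifit3, Ifi47 and Oas2, complete the 12, with changes from -4.30 to -4.85.

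**Figure D2:**
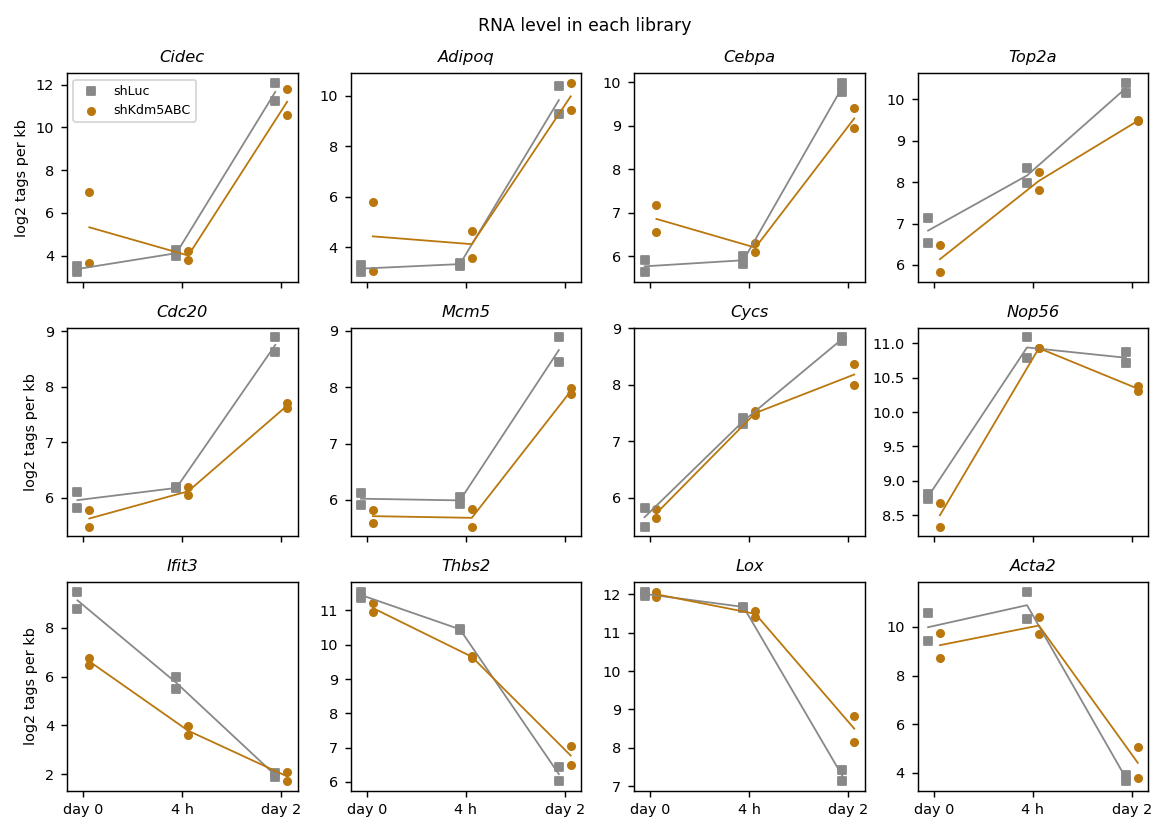
RNA level (y axis, log2 tags per kb, with its own range in each panel) of 12 genes at day 0, 4 h and day 2 (x axis). Points are single libraries, orange circles for shKdm5ABC and grey squares for shLuc, and lines join the group means. The 2 shKdm5ABC libraries at day 0 are 3.30 apart for Cidec and 0.15 apart for Lox.

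Transcription factors of adipogenesis rose for the most part: of 27 tested, 16 rose and 6 fell, with a median change of 0.95. Cebpa, which drives the late phase of the programme together with PPARγ, read 6.55 and 7.17 at day 0 and 8.94 and 9.40 at day 2. It rose by 2.31 (SE 0.22, adjusted p 3.16e-05), or 4.96-fold. Pparg read 8.32 and 9.16 and then 10.00 and 10.75, a rise of 1.64 (SE 0.32), and 2.06 without day 0 replicate 2. Both genes were higher in each day 2 library than in either day 0 library, as was every gene called as rising.

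Among the other factors, the early factors Cebpb (1.19) and Klf5 (1.54), the lipogenic factor Srebf1 (1.52) and Klf15 (2.79) rose. Klf15 was near the bottom of the scale at day 0, at 0.10 and -0.06. The list also holds Mrap, which is not a transcription factor but a partner of the corticotropin receptor, and it rose by 3.55. Gata2 and Klf2, which hold back adipogenesis, fell by 2.12 and 1.54: Gata2 read 5.35 and 5.55 and then 3.20 and 3.47. Zfp423, a factor of committed preadipocytes, changed by -0.29 and did not pass the test. Only 2 members fell without day 0 replicate 2, against 6, and 14 rose, and 3 fell without day 2 replicate 2. Pparg, Cebpb, Klf5, Zfp423 and 13 further well-known genes were added to the named genes after their values had been seen.

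All the called lipid droplet and lipolysis genes rose: 10 of 15 tested, with a median of 3.02. Lipe, hormone-sensitive lipase, read 6.15 and 7.30 at day 0 and 10.63 and 11.43 at day 2, a 19.8-fold rise (4.31, and 4.88 without day 0 replicate 2). Pnpla2, the lipase of the first step of lipolysis, rose by 3.92 (SE 0.37, and 4.40 without that library) and its co-activator Abhd5 by 1.68. Fitm2, a protein of the endoplasmic reticulum needed to bud droplets, read 6.73 and 7.41 and then 9.87 and 10.44 (change 3.08). Fabp4, the fatty acid carrier of fat cells, read 9.60 and 10.90 and then 12.82 and 13.71 (change 3.02, and 3.67 without day 0 replicate 2). Without day 0 replicate 1 its change was 2.37. The day 2 libraries also differed, replicate 2 being the higher by a median of 0.57 over the list, and at day 0 by 0.68.

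Of 22 adipokine and surface protein genes, 15 rose and 4 fell, with a median of 1.74. Adipor2, an adiponectin receptor, read 8.48 and 9.02 at day 0 and 11.41 and 11.81 at day 2, a change of 2.86 (SE 0.21, adjusted p 8.38e-06). Lpl, lipoprotein lipase, rose by 1.89 and Irs2, an adaptor of the insulin receptor, by 1.78. Apln, the peptide apelin, fell from 5.68 and 5.93 to 3.82 and 4.00, and Sncg, a synuclein, from 5.22 and 5.66 to 3.98 and 3.88. Both fell although the list is of fat cell products. Without day 0 replicate 2, or without day 2 replicate 1, 2 members fell and 15 rose.

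Genes of fatty acid and triglyceride synthesis were raised in 15 of 27 cases and lowered in 3, with a median of 1.11. Scd1, the desaturase that makes monounsaturated fatty acids, read 7.68 and 8.91 at day 0 and 11.95 and 12.57 at day 2, a 15.6-fold rise (3.97, and 4.59 without day 0 replicate 2). Gpd1, which makes the glycerol backbone, rose by 4.80 (SE 0.54, and 5.26 without that library), and Fasn, fatty acid synthase, by 1.62. Fads1 and Fads2, the desaturases of polyunsaturated fatty acids, went the other way. Fads1 read 9.60 and 9.68 and then 7.80 and 7.77, and Fads2 read 9.72 and 9.87 and then 7.67 and 7.53. They fell by 1.85 (adjusted p 3.45e-06) and 2.20, with replicates within 0.15 of each other.

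Mitochondrial genes rose broadly, with smaller medians than the fat storage lists. Of 34 oxidative phosphorylation subunits 32 rose and none fell, with a median of 0.76. Of 37 genes of the tricarboxylic acid cycle and branched-chain amino acid breakdown 31 rose and 1 fell (median 0.89), and of 24 genes of fatty acid oxidation and peroxisomes 16 rose and 1 fell (median 0.73). Cycs, cytochrome c, read 5.65 and 5.80 at day 0 and 8.0 and 8.37 at day 2, a change of 2.46 (SE 0.16, adjusted p 4.27e-06). Its pair of day 0 values was tight and lay far below both day 2 values. Cyc1, a subunit of complex III, rose by 1.48, Ndufv1 of complex I by 1.03 and Atp5g1 of the ATP synthase by 1.13.

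In the tricarboxylic acid list, Idh3a, a subunit of NAD-dependent isocitrate dehydrogenase, read 8.36 and 8.78 and then 10.38 and 10.93 (change 2.08). Mdh2, malate dehydrogenase, rose by 1.35 and Pdhb, of pyruvate dehydrogenase, by 1.43. The member that fell was Idh2, the NADP-dependent enzyme, from 11.09 and 10.87 to 10.70 and 10.16 (-0.55, adjusted p 0.0396), a call that ended without day 2 replicate 2 (-0.28, adjusted p 0.306), without day 0 replicate 1 (-0.44, adjusted p 0.194), without day 0 replicate 2 (adjusted p 0.0585) and with only the 4 compared libraries fitted (adjusted p 0.0889). It also ended with only the knockdown libraries fitted, with no filter on low values, without the mean-variance trend and with median centring. In a fit with the replicate number as a block, 2 members of the list fell. In the oxidation list Etfdh, which passes electrons to ubiquinone, rose by 1.54 and Pex11a, a peroxisome proliferation protein, by 2.33. Cpt1a, the gatekeeper of fatty acid entry into mitochondria, fell from 8.94 and 9.11 to 8.09 and 8.02 (-0.97, adjusted p 2.09e-04).

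Among 19 genes of mitochondrial biogenesis and brown fat 11 rose and 1 fell. Hspd1, the mitochondrial chaperonin, read 9.29 and 9.65 and then 11.21 and 11.72 (change 1.99), and the import channel gene Tomm40 rose by 1.36. Ppargc1a, a co-activator of mitochondrial genes, fell by 1.42 (adjusted p 0.00762). That call ended without day 0 replicate 2 (-1.06, adjusted p 0.0691) and without day 2 replicate 1 (-1.11, adjusted p 0.0594).

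Genes of cell division rose almost as a block. Of 58 genes of mitosis and cytokinesis 56 rose and 1 fell, with a median of 1.92, and of 55 genes of DNA replication and nucleotide synthesis 44 rose and none fell, with a median of 1.00. Of 34 DNA repair and checkpoint genes 25 rose and none fell (median 0.90), though 2 fell with the block. The mitosis count ranged from 54 to 56 when any of the 4 compared libraries was left out.

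Top2a, the topoisomerase that untangles replicated chromosomes, read 5.82 and 6.47 at day 0 and 9.48 and 9.49 at day 2. It rose by 3.34 (SE 0.26, adjusted p 1.02e-05), or 10.1-fold. Incenp, of the chromosomal passenger complex, read 6.24 and 6.11 and then 8.28 and 8.14 (change 2.04, adjusted p 3.32e-06), and Birc5, survivin of the same complex, 3.74 and 4.11 and then 6.52 and 6.29 (change 2.48). Cdc20, which activates the anaphase-promoting complex, rose by 2.03 and the proliferation marker Mki67 by 2.44. For each of these genes the day 2 libraries lay above both day 0 libraries, as for every gene called as rising. The member that fell was Cdc25b, a phosphatase that starts mitosis, from 7.07 and 6.73 to 6.21 and 6.08.

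Among replication genes Cdc45 of the replicative helicase read 5.01 and 5.11 and then 7.70 and 7.30 (change 2.44), and Mcm5 of the same helicase 5.59 and 5.82 and then 7.98 and 7.88 (change 2.22). Ctps, which makes CTP, rose by 1.96 (SE 0.13) and Impdh2, which makes guanine nucleotides, by 1.26. The sliding clamp gene Pcna rose by 1.22. In the repair list Brca1 (2.04), Fancd2 (2.27) and Parp1 (1.01) rose.

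The promoters of these genes can be read beside their changes. The sequences below are 250 bases up to the transcription start, from RefSeq on GRCm38.p6, for the mitosis genes of smallest p that have an entry. Capitals mark CHR elements (TTTGAA or its reverse complement TTCAAA), the element through which the DREAM and MuvB complexes act on mitotic genes, and CCAAT boxes (CCAAT or ATTGG), the site of the factor NF-Y.
Top2a, chr11:99024190-99024439, minus strand: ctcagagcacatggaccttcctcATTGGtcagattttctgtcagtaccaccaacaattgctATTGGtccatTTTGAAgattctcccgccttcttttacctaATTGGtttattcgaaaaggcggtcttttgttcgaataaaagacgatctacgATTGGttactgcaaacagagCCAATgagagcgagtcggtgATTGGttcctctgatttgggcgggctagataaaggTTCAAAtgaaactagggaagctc
Birc5, chr11:117848987-117849236, plus strand: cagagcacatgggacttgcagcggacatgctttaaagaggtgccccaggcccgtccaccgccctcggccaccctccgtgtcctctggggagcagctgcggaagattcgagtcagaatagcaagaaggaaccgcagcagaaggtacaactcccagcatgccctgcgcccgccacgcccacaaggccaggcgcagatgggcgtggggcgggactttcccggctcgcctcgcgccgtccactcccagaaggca
The Top2a window holds both elements several times over, and the Birc5 window holds neither.

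Over the whole mitosis list, 17 of 49 promoters with an entry held the CHR letters on either strand (34.7%) and 34 held a CCAAT box (69.4%). Over all 10432 tested genes with an entry the shares were 10.7% and 36.9%. A CCAAT box also stood in 58.7% of replication and 53.8% of repair promoters, and in 30.8% to 34.6% of the other lists searched. The E2F letters (TTTCCCGC or TTTGGCGC, either strand) stood in 7 of 46 replication promoters (15.2%) against 2.61% of all tested. Among all genes that rose the shares were 11.7% for CHR, 40.4% for CCAAT and 3.25% for E2F. The CHR letters also stood in 28.1% of 32 promoters of interferon effector genes, a list that fell, and in 0.0% to 15.4% of the other lists searched. The E2F letters stood in 11.5% of repair, 10.3% of ribosome biogenesis and 9.38% of interferon effector promoters, and in 0.0% to 6.12% of the other lists. A match describes letters in this window and not a bound site.

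Upstream regulators of the cycle were less uniform. Of 29 G1 and E2F regulators 14 rose and 3 fell, with a median of 0.55. Myc read 4.65 and 6.17 at day 0 and 9.65 and 9.19 at day 2 (change 4.01, SE 0.44), and 4.77 without day 0 replicate 2. E2f8 (1.96), E2f2 (2.89) and the cyclin gene Ccne1 (1.48) rose. Rbl2, a pocket protein of resting cells, fell from 7.49 and 7.61 to 6.85 and 6.95. Ccnd1, cyclin D1, read 8.75 and 9.63 and then 9.73 and 10.10, and its change of 0.72 did not pass the test (adjusted p 0.286) but did with the replicate number as a block (adjusted p 0.0124). Without day 0 replicate 1 or without day 2 replicate 2, 1 member fell in place of 3, and with the block 5 did.

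Among brakes of the cycle, of 22 CDK inhibitor and p53 genes 10 fell and 1 rose (2 with the block), with a median of -0.65. Cdkn1b, the inhibitor p27, read 9.63 and 9.54 at day 0 and 8.69 and 8.36 at day 2 (-1.07, adjusted p 2.45e-04). Fas, a death receptor under p53, fell by 2.08 and Plk2, a kinase under p53, by 1.52. Cdkn1a, the inhibitor p21, read 10.64 and 10.82 and then 10.41 and 10.76, so its groups overlapped (-0.15, adjusted p 0.462). The member that rose was Gadd45g, a stress-induced growth arrest gene, from 5.89 and 5.79 to 9.06 and 8.84.

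Ribosome biogenesis genes rose in 31 of 33 cases and fell in none, with a median of 1.01. Nop56, of the particle that methylates ribosomal RNA, read 8.33 and 8.68 at day 0 and 10.31 and 10.38 at day 2 (change 1.84, SE 0.14). Dkc1, the pseudouridine synthase dyskerin, rose by 1.68, Nop16 by 1.58 and Bop1 by 1.31. The 40 genes of cytosolic ribosomal proteins had a median of 0.14, and 7 of them rose (17.5%, against 22.0% of all tested transcripts). Rplp2 read 12.64 and 12.61 and then 13.37 and 13.28 (0.70, adjusted p 0.00410). The count that rose was 2 without day 0 replicate 2, 3 without day 2 replicate 1, 3 with only the 4 compared libraries fitted and 15 with the block, which also had 1 that fell. Chaperones of the cytosol rose in 12 of 23 cases and fell in 2, or in 1 when day 0 replicate 1, day 0 replicate 2 or day 2 replicate 1 was left out. Cct3, of the chaperonin that folds actin and tubulin, read 9.28 and 9.44 and then 10.60 and 10.70. Cryab, a small heat shock protein of muscle and lens, fell from 9.11 and 9.22 to 5.39 and 4.30.

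Of 25 preadipocyte and Wnt genes 13 fell and 5 rose (3 without day 0 replicate 1), with a median of -0.87. Dlk1 (Pref-1), a surface protein of preadipocytes that blocks their differentiation, read 12.16 and 11.88 at day 0 and 9.89 and 9.71 at day 2 (-2.22, adjusted p 1.04e-04). Sfrp2, a secreted Wnt modulator, read 7.94 and 8.36 and then 4.98 and 4.76, and Thy1, a fibroblast surface protein, 9.44 and 9.80 and then 7.64 and 7.37. Pdgfrb, the PDGF receptor of stromal cells, fell by 2.79. Wnt4 went up, from 4.73 and 5.18 to 7.63 and 7.59, as did the Notch ligand gene Jag1 (1.08).

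Collagens split. Of 30 collagen and collagen enzyme genes 14 fell and 10 rose, with a median of -0.23. Lox, which cross-links collagen, read 12.07 and 11.92 at day 0 and 8.84 and 8.16 at day 2, leaving 8.86% of the day 0 level (adjusted p 2.45e-06). The fibrillar collagen genes Col1a1 (-2.20) and Col3a1 (-1.57) and the fibril-associated Col12a1 (-2.57) fell. Col6a2, a chain of the microfibrillar collagen VI, read 11.65 and 11.78 and then 12.93 and 12.99, and the basement membrane gene Col15a1 5.14 and 5.20 and then 7.38 and 7.23. These rose by 1.25 and 2.14 and, like all called genes, did not overlap between times.

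Of 38 genes of other matrix glycoproteins and proteases 27 fell and 2 rose, with a median of -1.44. Thbs2, thrombospondin 2, read 10.94 and 11.21 and then 7.04 and 6.50, a 19.7-fold fall (SE 0.19, adjusted p 8.84e-07). Ogn, a small proteoglycan, fell by 3.53, and the metalloproteinase genes Mmp3 and Mmp11 by 3.22 and 3.08. The 2 that rose, Vcan (0.68) and Lamc1 (0.44), were both not called without day 0 replicate 1 or without day 2 replicate 1, and with the block 4 members rose.

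Contractile genes of the kind that the factor SRF drives fell in 19 of 27 cases and rose in none, with a median of -1.04. Acta2, smooth muscle actin, read 9.76 and 8.74 at day 0 and 5.04 and 3.76 at day 2, which left 3.47%. Cnn2, a calponin, read 10.64 and 10.26 and then 7.77 and 6.34, and Tpm1, a tropomyosin, 10.44 and 10.15 and then 7.78 and 7.29. In these genes replicate 2 was the lower at both times, and 7 of 27 members were lower by more than 1 in replicate 2 at day 2. For these genes the gap between times was still larger than the gap between replicates. Without day 2 replicate 2, 16 fell and 1 rose, and with the block 1 rose as well.

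Interferon effector genes fell together. Of 42 tested 36 fell and none rose, with a median of -2.28. These are antiviral genes that interferon signalling switches on. Ifit3, which binds foreign RNA with its relatives, read 6.49 and 6.75 at day 0 and 1.71 and 2.10 at day 2 (-4.71, SE 0.28, adjusted p 3.13e-06). Ifit2 read 6.33 and 6.54 and then 2.47 and 2.29, and Gbp2, a guanylate binding protein, 6.63 and 6.88 and then 2.92 and 2.71. B2m, the light chain of class I histocompatibility molecules, started far higher, at 13.90 and 14.04, and ended at 11.67 and 11.57, a 5.10-fold fall. In all of these the times were apart by much more than the replicates.

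The promoters of Ifit3 and B2m, 250 bases before the start on GRCm38.p6 from RefSeq, show the element in question. Capitals mark letters of the ISRE kind (GAAA and GAAA spaced by any 2 bases, or the reverse complement), which the STAT and IRF complex reads.
Ifit3, chr19:34583279-34583528, plus strand: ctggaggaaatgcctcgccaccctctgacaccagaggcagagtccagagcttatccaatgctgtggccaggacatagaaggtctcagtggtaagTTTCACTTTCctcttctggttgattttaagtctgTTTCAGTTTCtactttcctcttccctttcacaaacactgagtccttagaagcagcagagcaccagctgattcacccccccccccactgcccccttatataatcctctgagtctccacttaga
B2m, chr2:122147437-122147686, plus strand: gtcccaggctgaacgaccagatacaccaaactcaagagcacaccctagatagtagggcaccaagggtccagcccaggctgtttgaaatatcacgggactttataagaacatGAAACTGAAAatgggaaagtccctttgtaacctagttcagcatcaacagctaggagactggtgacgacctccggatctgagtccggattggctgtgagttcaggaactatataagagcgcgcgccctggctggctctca
The Ifit3 window holds the element at more than one place and the B2m window at one. Of 32 effector promoters with an entry 13 held it (40.6%), against 2.51% of all tested genes and 3.29% of all that fell. It also stood in 11.5% of repair, 11.5% of matrix and 7.69% of oxidative phosphorylation promoters, and in 0.0% to 4.08% of the other lists searched.

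Among the genes that sense and relay interferon, 17 of 28 receptor, STAT, IRF and sensor genes fell and 4 rose (median -0.76). Stat2 read 8.49 and 8.67 and then 6.19 and 6.31 (-2.33, adjusted p 3.24e-06), and Irf9 (-1.89), Irf7 (-2.29), Irf1 (-1.44) and Sting1 (-2.09) also fell. Ifngr1, a chain of the interferon gamma receptor, rose from 7.36 and 7.79 to 9.45 and 9.96. The number that rose was 1 without day 0 replicate 1 or without day 2 replicate 2, and 2 with only the 4 compared libraries fitted.

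Secreted inflammatory genes followed the same direction in 15 of 28 cases, with 3 that rose (5 with the block) and a median of -0.87. Csf1, the macrophage growth factor, read 8.74 and 9.14 at day 0 and 6.17 and 6.00 at day 2 (-2.85, adjusted p 3.47e-06). The chemokine genes Ccl7, Ccl8 and Ccl9 fell by 2.51, 3.13 and 3.17. Lcn2, an iron-scavenging secreted protein, rose instead, from 5.06 and 6.53 to 9.50 and 10.18.

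Lysosomal genes fell in 18 of 26 cases and rose in 1 (2 with the block), with a median of -1.06. Gaa, acid alpha-glucosidase, read 10.60 and 10.50 at day 0 and 8.26 and 7.96 at day 2 (-2.44, SE 0.13, adjusted p 1.85e-06). Ctsa (cathepsin A) fell by 2.34 and Hexa by 1.93. The member that rose was Tfeb, the factor that drives lysosomal genes, from 4.71 and 4.52 to 5.80 and 6.04. Of 33 TGF-β and BMP pathway genes 15 fell and 4 rose, or 7 with the block (median -0.39). Grem1, a BMP antagonist, fell from 9.06 and 9.58 to 6.96 and 6.47, Id1, a target of BMP signalling, rose from 9.42 and 9.20 to 10.94 and 10.62, and Tgfbr2 rose by 0.93.

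Hormone and cAMP response genes rose more often than they fell, and the inducers' part in this was not tested. Of 36 glucocorticoid, cAMP and immediate-early genes 16 rose and 2 fell, with a median of 0.54. These shares were 44.4% and 5.56%, against 22.0% and 23.1% of all tested transcripts. None fell without day 0 replicate 1 or without day 2 replicate 2, and 1 fell without either of the other compared libraries, with no filter on low values or with quantile normalization. Zbtb16, a zinc finger factor induced by glucocorticoid, read 5.19 and 5.27 at day 0 and 8.01 and 8.33 at day 2 (change 2.94, SE 0.14, adjusted p 9.74e-07). Fkbp5, a co-chaperone of the glucocorticoid receptor, rose by 2.28 and Tsc22d3 (GILZ) by 2.29. Dusp1, a phosphatase of MAP kinases, read 6.62 and 6.52 and then 8.80 and 8.33, below its 4 h mean of 11.08. The glucocorticoid receptor gene Nr3c1 was lower at day 2 (-0.78, adjusted p 0.0256), a call that ended without day 0 replicate 2 (-0.50) and without day 2 replicate 1 (-0.52). Of 18 clock genes 5 rose and 2 fell (27.8% and 11.1%, against 22.0% and 23.1% of all tested transcripts). Per2 (1.93) and Nfil3 (2.68) rose, and Dbp (-2.06) and Bhlhe41 (-2.62) fell.

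Other metabolic groups were mixed. Of 29 glycolysis and hypoxia genes 14 rose and 5 fell, with 8 rising without day 0 replicate 1 or without day 2 replicate 2. Ldha, lactate dehydrogenase A, rose from 10.07 and 10.26 to 11.18 and 11.25, and Slc2a1, the basal glucose transporter, fell from 9.29 and 9.54 to 8.52 and 8.44. Of 32 pentose phosphate, glutathione and redox genes 14 rose and 7 fell, or 4 fell without day 2 replicate 2. With all libraries fitted, shares that rose and fell were 48.3% and 17.2% for the glycolysis list and 43.8% and 21.9% for the redox list. Over all tested transcripts they were 22.0% and 23.1%. Taldo1, transaldolase, rose by 2.19, Gclc, which starts glutathione synthesis, by 2.01 and Sod1 by 1.56, while Gstm2 fell by 1.77. Of 27 cholesterol synthesis genes 4 rose and 5 fell (14.8% and 18.5%, against 22.0% and 23.1% of all tested transcripts). Insig2, which holds SREBP in the endoplasmic reticulum, rose by 1.34 and Ebp, a sterol isomerase, fell by 0.94. Leaving out 1 library at a time gave 2 to 5 that rose and 3 to 6 that fell, and the block 7 and 9.

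Of 38 unfolded protein and integrated stress genes 12 rose and 4 fell, with a median of 0.20, and 2 fell when any 1 of the 4 compared libraries was left out. With all libraries fitted the shares that rose and fell were 31.6% and 10.5%, against 22.0% and 23.1% of all tested transcripts. Slc7a5, an amino acid transporter, read 6.64 and 7.32 at day 0 and 9.13 and 9.82 at day 2 (change 2.49). Xbp1 rose by 1.78 and the serine enzyme gene Psat1 by 1.29. Eif2ak3, the kinase PERK, fell from 7.57 and 7.54 to 6.73 and 6.84. Of 33 insulin and growth factor signalling genes 10 rose and 11 fell (30.3% and 33.3%, against the same 22.0% and 23.1%). Igfbp4, which binds IGF, rose by 2.07, and Fgf7 fell by 2.30. The number that fell was 5 without day 0 replicate 2 and 6 without day 2 replicate 1.

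Other enzymes act on the same histone mark as KDM5. Of 23 writers and other erasers of lysine 4 methylation 4 rose and 3 fell, with a median of -0.06. These shares, 17.4% and 13.0%, were below the 22.0% and 23.1% of all tested transcripts. The number that fell was 7 with the block, 6 with quantile normalization and 1 without day 2 replicate 2. Dpy30 and Wdr5, subunits of all the MLL and SET1 writer complexes, read 7.56 and 7.61 and then 8.26 and 8.51, and 7.40 and 7.34 and then 7.93 and 7.81. Smyd3, a methyltransferase, fell from 5.67 and 5.84 to 4.91 and 4.74.

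Most markers of other cell types were low. Of 12 macrophage markers in the table, 6 reached a log2 value of 1 in either day 0 library, and the defining markers Adgre1, Ptprc, Itgam, Fcgr1, Cd163 and Mrc1 stayed under it in every compared library. Summed over the list the level was 177 and 186 tags per kb at day 0 and 88.4 and 62.9 at day 2, and of 6 tested members 5 fell (3 without day 2 replicate 2), among them Cd68 (-1.19) and Mpeg1 (-2.23). Their part in the fall of interferon and lysosomal genes was not tested. The endothelial markers Pecam1, Cdh5, Kdr, Tek and Emcn, the neuronal markers Rbfox3, Snap25 and Syt1 and the muscle markers Ckm, Myf5 and Pax7 stayed under a log2 value of 1, as did the osteoblast markers Sp7, Bglap and Ibsp. Other members of these lists reached that value. In each day 0 library these were 2 of 7 endothelial, 3 of 7 neuronal, 3 of 7 muscle and 6 of 10 osteoblast and chondrocyte markers.

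In the osteoblast and chondrocyte list 4 of 7 tested members fell and 1 rose. Spp1, osteopontin, fell from 11.70 and 11.62 to 7.81 and 7.32 and Runx2 from 7.25 and 7.18 to 5.59 and 4.98. The member that rose was Alpl, alkaline phosphatase, from 2.63 and 2.64 to 4.13 and 4.59 (1.72, adjusted p 0.0110), a call that ended without day 2 replicate 2 (1.49, adjusted p 0.0736). The epithelial keratin gene Krt14 rose from 1.17 and 1.43 to 4.65 and 5.52, whereas Cdh1, Krt5, Krt8 and Esrp1 stayed under 1.

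Control cells went through the same interval, and their libraries are separate from the knockdown libraries. In shLuc 7441 transcripts were called (55.0%), 3673 that rose and 3768 that fell. Of the transcripts that rose in the knockdown 89.4% also rose in shLuc, which is 72.6% of those that rose in shLuc. Of those that fell 90.8% also fell in shLuc, or 75.4% of those that fell there. Pearson's r of the 2 changes across the 13534 transcripts was 0.927, a description, since genes are not independent replicates. Of the 5509 transcripts called in the same direction in both, 78.3% had the larger change in shLuc, and the median ratio of the knockdown to the shLuc change was 0.812.

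The lists show the same ordering by size. Lipid droplet genes had a median of 3.02 in the knockdown and 3.95 in shLuc, mitosis genes 1.92 and 2.36, replication genes 1.00 and 1.47, oxidative phosphorylation subunits 0.76 and 1.08 and interferon effector genes -2.28 and -4.13. Glucocorticoid, cAMP and immediate-early genes were among the exceptions, at 0.54 in the knockdown and 0.26 in shLuc. These differences between lists were not tested as lists.

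**Figure D3:**
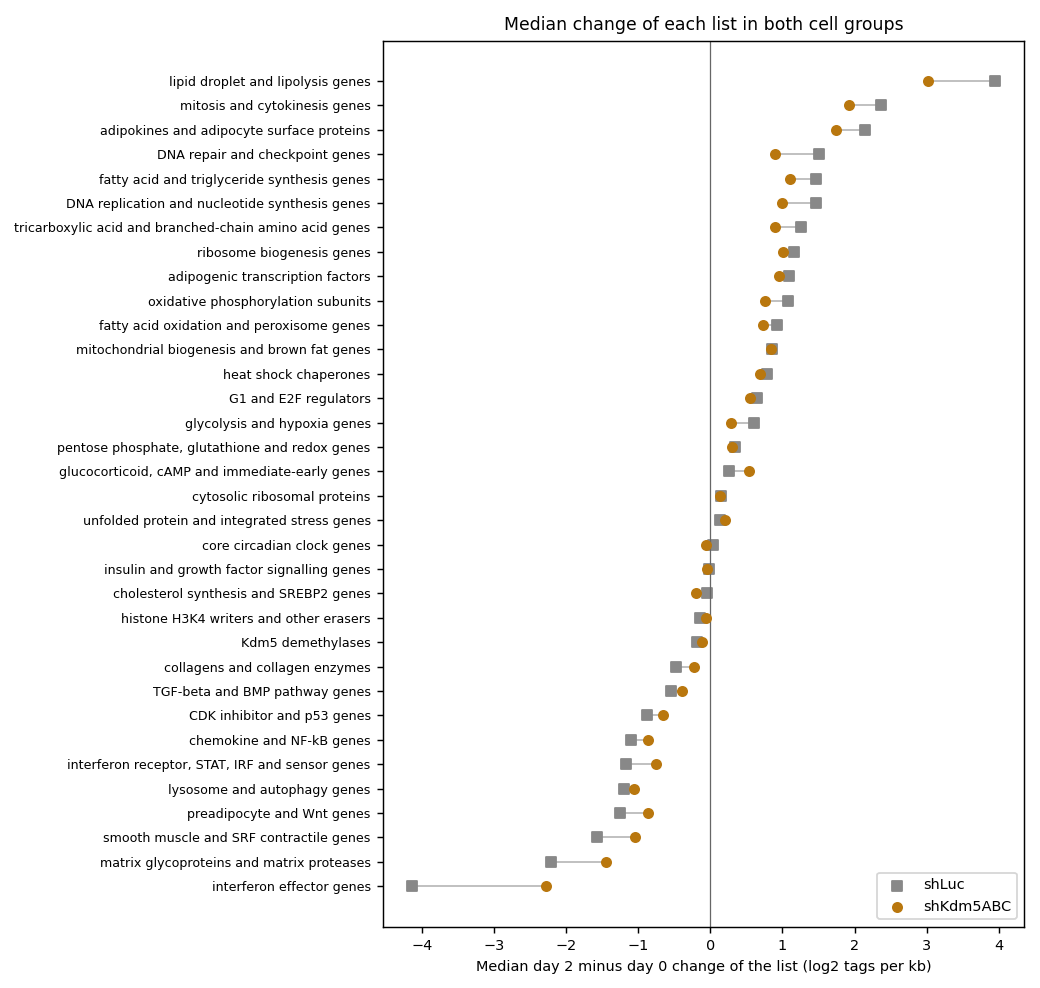
Median day 2 minus day 0 change of each gene list (x axis, log2 tags per kb) in shLuc cells (grey squares) and shKdm5ABC cells (orange circles), joined by a line for each list (y axis). The interferon effector list has the widest gap, from -4.13 to -2.28.

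A test of the difference between the changes, knockdown minus shLuc, called 42 transcripts (0.31% of those tested). All 42 had the more positive change in the knockdown, and none had the more negative. At an unadjusted p under 0.05 there were 930 with a more positive and 687 with a more negative knockdown change, among 1617. With the replicate number as a block, 1038 were called, 644 more positive and 394 more negative. Of the 42, 28 fell in both groups, 5 fell in shLuc and were not called in the knockdown, 5 rose in the knockdown and were not called in shLuc, 3 rose in the knockdown and fell in shLuc, and 1, Samhd1, rose in both. The count rests on all libraries: it was 0 or 1 when a library was left out, except that it was 144 without knockdown day 2 replicate 2.

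**Figure D4:**
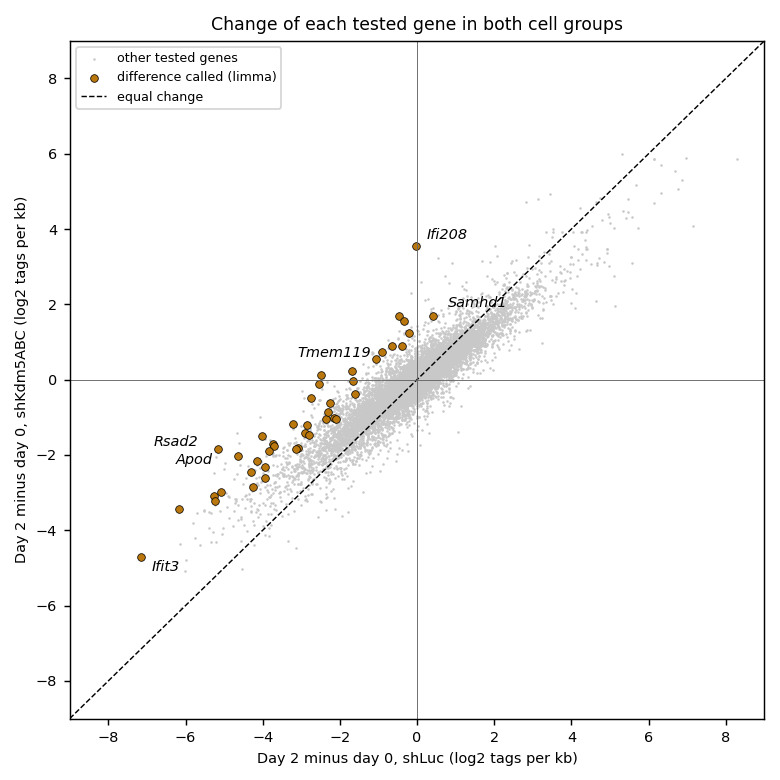
Day 2 minus day 0 change of each of the 13534 tested transcripts in shLuc cells (x axis) and shKdm5ABC cells (y axis), both in log2 tags per kb. Grey points are transcripts with no called difference, orange points the 42 with one, and the dashed line marks equal change. All orange points lie above the line.

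Some of these genes started alike and ended apart. Olfml3, a secreted olfactomedin protein, read 9.0 and 9.13 at day 0 and 7.15 and 7.42 at day 2 in the knockdown, while the shLuc mean went from 9.01 to 5.30. The difference of the changes was 1.94 (SE 0.21, adjusted p 0.0253). Clca3a1 read 10.16 and 10.25 and then 8.58 and 8.40, against shLuc means of 10.39 and 6.65, and Apod, a lipid-binding apolipoprotein, 11.55 and 11.86 and then 9.71 and 9.63, against 11.40 and 6.75. Lbh, a co-factor of transcription, and Creb3l1, a membrane-bound transcription factor, had differences of 2.00 and 2.04. Adamts5, a protease of proteoglycans, read 7.61 and 7.67 and then 7.06 and 6.96, against shLuc means of 7.67 and 5.42.

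Several interferon genes differed more between the groups at day 0 than at day 2. Isg15, a ubiquitin-like antiviral protein, read 7.39 and 7.73 at day 0 and 4.74 and 4.40 at day 2 in the knockdown, and the shLuc means were 10.11 and 5.02. Rsad2 (viperin) read 1.73 and 1.25 and then -0.35 and -0.36, against shLuc means of 4.93 and -0.22, so its day 2 levels were at the bottom of the scale in both. Ifit3 read 6.49 and 6.75 and then 1.71 and 2.10, against 9.12 and 1.96. Of the 42 interferon effector genes 6 were called for a difference, among them also Bst2 (1.94), Irgm1 (1.85) and Parp14 (2.17). Parp14 was not called as different at day 0 (-0.97, adjusted p 0.108) and was higher in the knockdown at day 2 (1.20, adjusted p 0.0199). Outside that list Stat2 (1.61) and Oas1b (2.51) were called as well, and both were lower in the knockdown than in shLuc at day 0 (adjusted p 0.00751 and 0.0115) and higher at day 2, by 0.57 (adjusted p 0.0346) and 1.01 (adjusted p 0.0232). Fn1, fibronectin, was also further apart at day 0, at 12.19 and 12.30 and then 10.87 and 10.76, against shLuc means of 13.50 and 10.60.

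Others were called in 1 of the 2 groups or in opposite directions. Ifi208 read 0.52 and 0.62 at day 0 and 4.24 and 4.01 at day 2 in the knockdown, against shLuc means of 1.25 and 1.21. It belongs to a family of similar genes whose reads may be shared, so its value is uncertain. Tent5b rose by 1.24 in the knockdown and changed by -0.20 in shLuc, and Slc10a6, a transporter of steroid sulphates, rose by 1.55 and changed by -0.34. Tmem119 read 9.24 and 9.59 and then 9.80 and 9.47 in the knockdown, with overlapping groups, while the shLuc mean fell from 9.84 to 8.15. Jcad, Pld1 (phospholipase D1) and Slc9a3r1 rose in the knockdown, by 0.73, 0.55 and 0.90, and fell in shLuc, by 0.91, 1.07 and 0.66. Apod, Tent5b, Slc10a6, Jcad, Pld1, Slc9a3r1 and Samhd1 were picked out after their values had been seen.

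**Figure D5:**
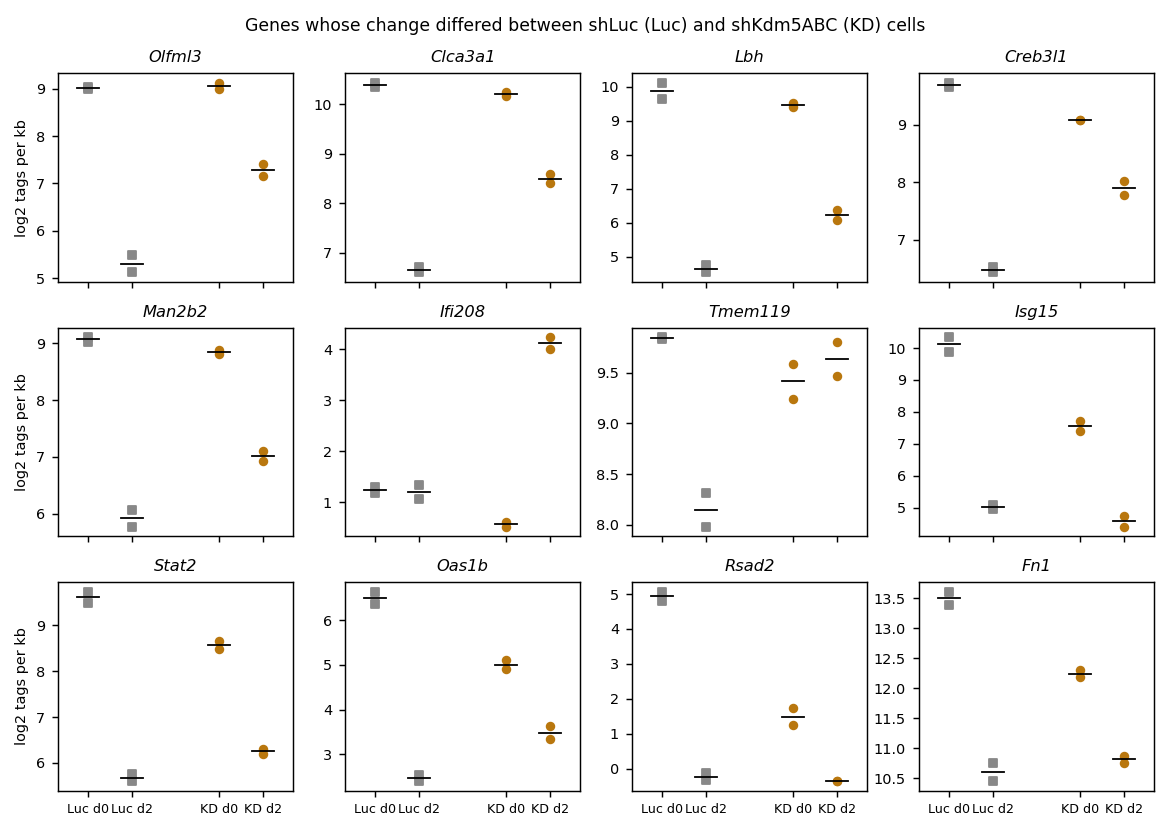
RNA level (y axis, log2 tags per kb, with its own range in each panel) at day 0 (d0) and day 2 (d2) in shLuc (Luc, grey squares) and shKdm5ABC cells (KD, orange circles) for 12 genes with a called difference between the changes. Points are single libraries and black bars group means. In Olfml3 and Clca3a1 the groups part at day 2, and in Isg15 and Rsad2 they part at day 0.

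KDM5A occupancy was measured by ChIP in cells for which no transduction is stated, so it describes where the protein sat and not the knockdown. A KDM5A peak lay within 1000 bp of the annotated start of 75.5% of the genes that rose, 75.4% of those that fell and 71.1% of those not called. By tags in the such peak that was highest at day 0, the classes differed more. The median at day 0 was 220 scaled tags for genes that rose, 131 for genes that fell and 184 for the rest, and at day 2 it was 270, 146 and 224. Input medians over the same peaks were 14.4, 10.8 and 12.6. The median RNA levels in the knockdown cells at day 0 were 6.94 for genes that rose and 7.03 for genes that fell. At day 2 they were 7.88 and 5.88, so the day 2 tags were set beside classes that also differed in RNA level. The lists did not all follow this order. Among lists that mostly rose, the day 0 median was 274 tags for replication genes and 337 for oxidative phosphorylation subunits. It was only 72.0 for lipid droplet genes and 59.9 for adipokine and surface genes. Among lists that mostly fell, it was 95.4 for interferon effector genes and 72.5 for matrix genes, but 206 for lysosomal genes and 189 for CDK inhibitor and p53 genes. These are descriptions over genes, with no test.

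The H3K4me3 columns were not compared between day 2 and day 0. Over 759 promoter peaks, the column headed as knockdown day 0 followed the RNA of knockdown 4 h most closely (r 0.47, against 0.26 with its own group), and the column headed as knockdown 4 h followed the RNA of shLuc day 2 (r 0.84). Only the columns headed as shLuc day 0 and knockdown day 2 followed their own group best.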

How the data were processed

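RNA libraries were TruSeq polyA libraries of TRIzol-extracted RNA, per the labels' protocols. The deposited RNA table is on a log2 scale of normalized tags for each kb, per the file name. Tools listed for RNA in the submitters' processing notes are Bowtie2 (version given as 0.12.8), Subread and DESeq2, and those for ChIP are STAR and HOMER, all with mm9. The size factors and pseudocount behind the log2 values are not given in the sources used here. The deposited ChIP values are signal, tags per merged peak scaled by the authors to a common library total, and distances to the start site are theirs too. The RNA table holds no counts, so its depth is unknown. KDM5A and input columns are whole multiples of 1 step, which gives library totals of 3.87M to 17.6M if they were scaled to 10M. H3K4me3 and KDM5C values entered no comparison, H3K4me3 because its columns went against the RNA times.

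RefSeq IDs were named from a RefSeq gene table (17253 rows) or, failing that, a peak table (139), and 123 stayed unnamed. Column names were matched to sample titles, which give the groups. All 12 libraries were fitted with limma 3.58.1 in R 4.3.3, with 1 mean per group and a mean-variance trend, 6 residual degrees of freedom and a median prior of 4.07. Tests were two-sided with Benjamini-Hochberg adjustment over 13534 rows, and the SE is that of the fitted change. On simulated data of this size, with 200 genes changed by 1 on the log2 scale in the knockdown comparison, the fit recovered 50.5% of them. The simulation had far fewer changed genes than were called in the data, and its noise was independent between libraries. The share recovered therefore does not measure sensitivity in these data. Same-numbered replicates deviated together in all 15 pairs of groups (r 0.381 to 0.657), so the block fit is given beside a call it changes or a list count it moves by over 1.5 times.

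The 40 gene lists (1117 symbols, 1027 tested) and the members were chosen with earlier results of these data known. Named genes are the Kdm5 genes, up to 4 called members of smallest p per list with up to 2 against the list's majority (or the 2 highest where none was called), the 12 highest and 12 lowest changes with a group mean of at least 3 and no overlap, the 10 smallest p of the difference, and list members called for it. Promoter windows came from a RefSeq table on GRCm38.p6, which held 10432 of 13532 tested symbols. Alternatives covered the low-value filter, the samples fitted, the block, the trend, robust fitting, scaling, a test against a 2-fold change and each library left out. The fit on only the 4 compared libraries was added after seeing the data. Some named genes are not reported here.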

Additional observations from a re-analysis of the deposited data

Results flagged for a closer look

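These genes changed differently between day 0 and day 2 in knockdown and shLuc cells by limma's test of the difference itself (knockdown change minus shLuc change, log2). All differences were positive. Among interferon genes the difference was 2.45 for Ifit3, 3.30 for Rsad2, 2.10 for Isg15, 1.94 for Bst2, 1.85 for Irgm1, 2.17 for Parp14, 2.51 for Oas1b, 1.61 for Stat2 and 3.60 for Ifi208. For matrix and secreted proteins it was 1.47 for Fn1, 1.62 for Adamts5 and 1.94 for Olfml3. The other named genes were Clca3a1 (2.02), Tmem119 (1.91), Lbh (2.00), Creb3l1 (2.04), the lysosomal mannosidase gene Man2b2 (1.31) and the haem oxygenase gene Hmox1 (1.24).

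The knockdown changes of Adamts5 (-0.63, adjusted p 0.0222) and Hmox1 (-0.38, adjusted p 0.0347) were called only narrowly, and Adamts5 was not called when any 1 of the 4 compared libraries was left out (adjusted p 0.0569 to 0.104). Hmox1 was not called without day 0 replicate 2 (adjusted p 0.198), without day 2 replicate 1 (0.0801), without day 2 replicate 2 (0.133) or with only the 4 compared libraries fitted (0.0853).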

How the results depend on the processing

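The counts for the knockdown and for shLuc stayed within 1.5 times the reported ones under each alternative run except the test against a 2-fold change. That test left 969 genes in the knockdown (395 rose, 574 fell) and 1820 in shLuc (752 and 1068). With each library left out in turn the counts were 4488 to 5278 in the knockdown and 6119 to 6296 in shLuc. The replicate block gave 8088 (4024 rose, 4064 fell) and 9034.

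The difference between the changes was the unstable result. Its 42 calls became 0 with no filter on low values (1935 at an unadjusted p under 0.05), 9 with only the 8 day 0 and day 2 libraries, 24 without the mean-variance trend (23 more positive, 1 more negative), 0 against a 2-fold change and 1038 with the replicate block (644 more positive, 394 more negative). With a log2 filter of 3 there were 43 and with median centring 31, each with 1 more negative, and with quantile normalization 28. With a library left out the counts ran from 0 to 144, with 0 to 123 more positive and 0 to 21 more negative. The cause was not tested.

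Of 228 named genes, a sign turned only in genes that were not called. With each of the 4 compared libraries left out in turn, Kdm5c ran from -0.01 to 0.26 (-0.00 without day 2 replicate 1), Egfl7 from -0.38 to 0.23 (0.19 without day 0 replicate 2), Flt1 from -0.65 to 0.07, Tnnt3 from -0.04 to 1.06 and Cdkn1a from -0.32 to 0.03. Under quantile normalization Egfl7 was 0.13. Leaving out 1 library ended 9 to 12 named calls, and the block added 2 (Ccnd1 and Des) and ended none.

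With 2 libraries a group and no counts, precision rests on the shared fit and the depth is unknown. Other settings for H3K4me3 were not run, since no H3K4me3 comparison is given.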

Other observations

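Gene families picked by symbol after their values had been seen add to the description. Of 78 mitochondrial ribosomal protein genes 58 rose and none fell in the knockdown cells between day 0 and day 2, with a median of 0.68 (0.89 in shLuc). Of 38 proteasome subunits 27 rose and 3 fell, and the lowest change, -2.90, was that of Psmb8, a subunit of the immunoproteasome. Of 18 cytosolic aminoacyl-tRNA synthetases 15 rose and 1 fell, with a median of 0.58, while in shLuc 7 rose and 2 fell, with a median of 0.31. That difference between the groups was not tested. For all tested genes the shares that rose and fell were 22.0% and 23.1%.

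Among surface, patterning and zinc finger families the counts varied. Of 43 protocadherin genes 36 fell and 1 rose (median -1.02), though these genes share sequence and their reads may be shared. Of 20 semaphorins and plexins 10 fell and 3 rose, with changes from -3.15 to 4.83, the highest being Sema3g. Of 23 genes with symbols that begin with Itga or Itgb 11 fell and 3 rose. These are integrins apart from the integrin-like Itgbl1, which was among those that fell. Of 19 Hox genes 9 fell and 2 rose. Of 343 numbered zinc finger genes 93 fell (27.1%) and 18 rose, with a median of -0.25. All 13 guanylate binding and immunity GTPases had a negative change, of which 12 fell by the test, with a median of -2.41 (-4.19 in shLuc).

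Between knockdown and shLuc cells 12 genes were called in opposite directions. Thbd, thrombomodulin, read 7.31 and 8.01 at day 0 and 8.73 and 8.46 at day 2 in the knockdown, a rise of 0.93, and fell by 0.73 in shLuc. Foxo4 rose by 0.47 and fell by 0.49. S100a13 and Kifc3 fell in the knockdown and rose in shLuc. The difference passed its own test for Jcad, Pld1 and Slc9a3r1 of the 12.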
